A study of Mus musculus with 6 samples.

Results

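The genes described here are 35 genes of epithelial adhesion and identity, chosen by symbol from a fixed list of adhesion molecules, keratins, claudins, other junction proteins, apical sorting genes, surface proteases and their inhibitors, epithelial regulators and a pair of secreted or duct markers. Every one of the 35 has a row among the 20033 genes measured, none lay under 1 TPM (transcript abundance scaled by gene length and library total) in any library, and all were tested. The libraries are poly(A) RNA of whole mesonephroi from male mouse embryos at stage E12.5: 3 controls and 3 global Wnt9b knockouts (Wnt9b-/-), each labelled as a separate mouse. The controls are heterozygous in the genotype label and Wnt9b+/+ in the design text, and litter, strain and batch are not given. The study asked what Wnt9b does for the Wolffian duct and for androgen action.

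Epithelial cells hold together through adherens junctions, built on cadherins, and through tight junctions, built on claudins, occludin and their cytoplasmic partners, which seal the sheet and separate its apical from its basolateral face. Keratins form the filaments inside, always as pairs of a type I and a type II protein. In the mesonephros these genes belong mainly to the Wolffian duct and the mesonephric tubules, and also to the coelomic epithelium on its surface. Wnt9b is a secreted Wnt ligand made by the duct epithelium that acts on the mesenchyme and tubules around it. In bulk RNA, fewer cells of a type and less RNA per cell cannot be told apart.

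Among these 35 genes 1 passed the test between knockout and control mesonephroi: Calb1, the calcium-binding protein calbindin, a marker of the duct, fell to 35.1% of its control level, at 4.88 ± 1.09 TPM against 13.9 ± 2.31 TPM (SD, n = 3 each). The mean of the knockouts was within 1.25-fold of the control mean for 28 of the 35 genes, Cdh1, Cdh16, Cldn4 and Krt7 among them. Krt8 and Krt18, the filament pair of simple epithelia, averaged 84.4% and 82.0% of their control levels without overlap between the groups, and Krt19 averaged 132%. None of these 3 keratins passed limma's test over all genes.

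Of the 35 genes, 0 were called higher and 1 lower by limma on log2(TPM + 1) with the adjusted p held under 0.05, where 0.131% and 0.313% of 17577 tested genes were called in those directions and 0.444% in either. At an unadjusted p below 0.05 there were 6 (Calb1, Krt18, Krt8, Krt19, Cldn6 and Prom1), a share to be read against 11.3% of all tested genes. The median log2 difference of knockout minus control was -0.036, with 15 genes above 0 and 20 below, and -0.0075 over all tested genes. A missed threshold does not show equal levels, so the 95% intervals of the differences matter. On the log2(TPM + 1) scale they stayed inside 1.5-fold in both directions for 23 genes. Inside 2-fold they stayed for 34, with Calb1 as the exception. The 1 TPM added narrows the intervals of low genes, so these bounds are not folds of TPM. For Ehf, the log2 difference was 0.39 (SE 0.23) on this scale and 0.52 (SE 0.31) with 0.1 TPM added instead. The sum of the 35 genes was 1630 to 1657 TPM in controls, against 1506 to 1608 in the knockouts. Genes of high level weigh most in such a sum. The highest were Krt18, with means of 296 TPM in controls and 243 in knockouts, and Krt8, with 179 and 151. The 8 junction proteins alone summed to 194 to 205 TPM in controls, against 206 to 219 in the knockouts.

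**Figure D1:**
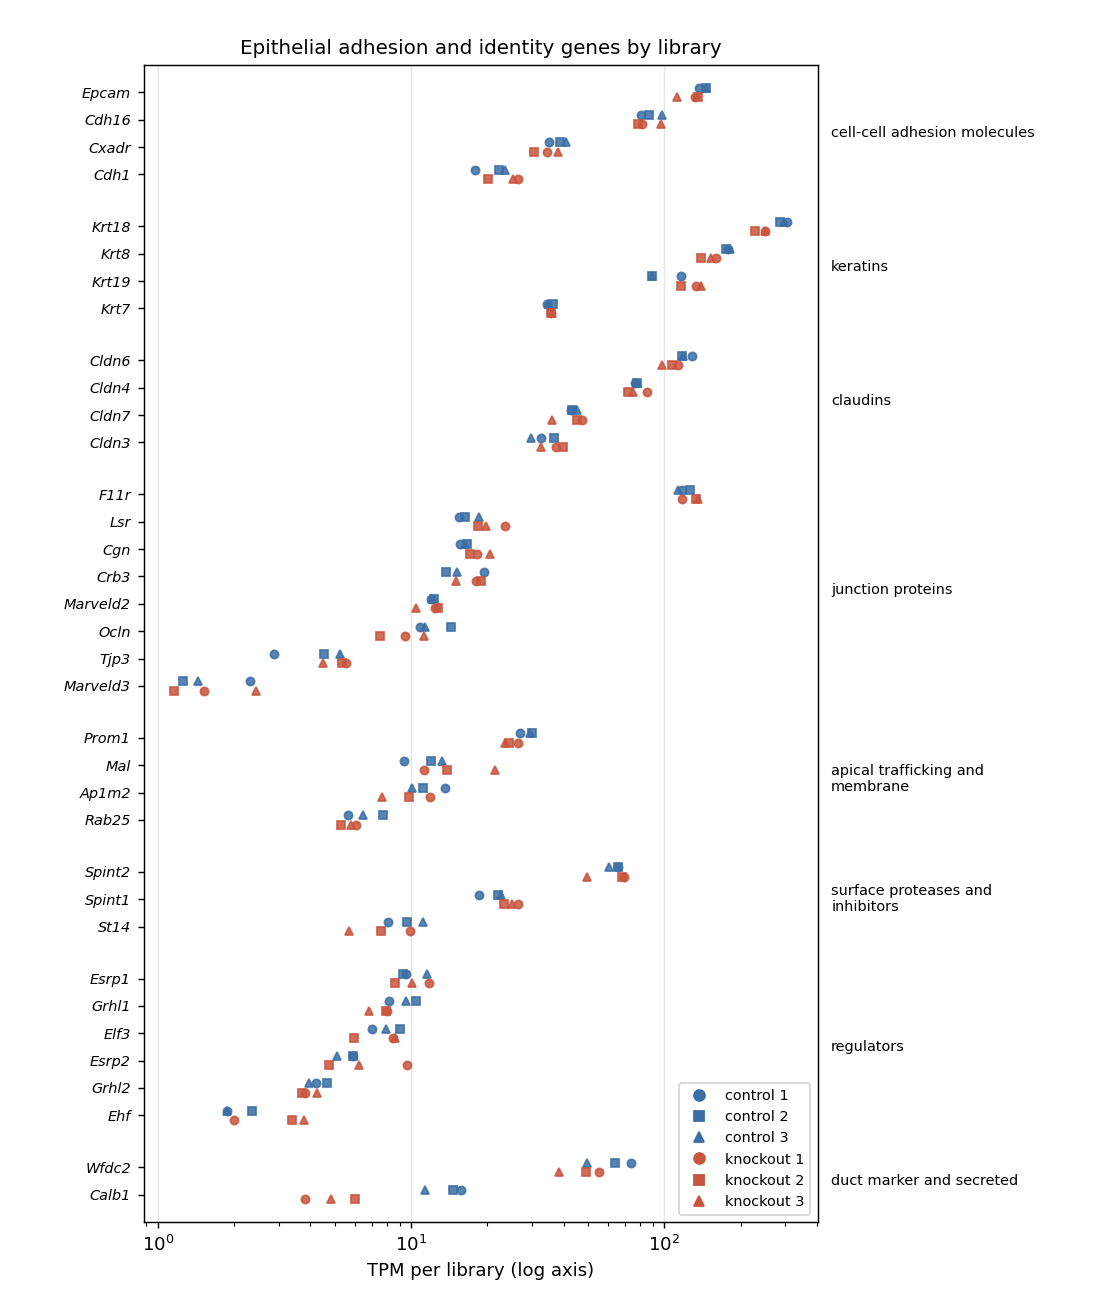
TPM of the 35 genes (log axis) in each of the 3 control (blue) and 3 knockout (red) libraries, with 1 row per gene, grouped by role. Calb1 is the row where the groups stand farthest apart, with controls from 11.3 to 15.8 TPM and knockouts from 3.81 to 5.998 TPM.

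Levels spanned a wide range: 6 genes averaged 100 TPM or more over the 6 libraries, 19 lay from 10 to under 100 TPM and 10 under 10 TPM. Krt18 was the highest, at a mean of 269.5 TPM, and Marveld3 the lowest, at 1.69 TPM. TPM is scaled by gene length, so levels may be set side by side between genes. Each gene had at least 32 reads in every library, as far as reads can be recovered from the deposited values. The median SD among libraries of a group was 10.4% of the mean in controls and 11.1% in knockouts.

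Among the adhesion molecules, Epcam, a homophilic adhesion protein of epithelial membranes, was at 137, 146 and 146 TPM in controls 1 to 3 and at 132, 136 and 113 TPM in knockouts 1 to 3. Its groups did not overlap, and the log2 difference was -0.17 (with SE 0.082 and adjusted p = 0.484 by limma). Cdh1, which encodes E-cadherin, the core of the epithelial adherens junction, was at 17.8, 22.3 and 23.5 TPM in controls, against 26.5, 20.1 and 25.2 in the knockouts. Control 1 was the lowest and knockout 1 the highest of these, and the groups overlapped. Cdh16, the cadherin of kidney tubule and duct epithelium, was at 80.8, 87.1 and 97.8 TPM in controls, against 81.6, 78.6 and 97.2 in the knockouts, and the 95% interval of its log2 difference ran from -0.28 to 0.19. Cxadr, a junctional adhesion protein that also serves as a virus receptor, had a log2 difference of -0.15 (SE 0.10).

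Cdh1 and Epcam are also made by germ cells of the adjoining gonad. Summed over 9 germ cell markers in the table, TPM ran from 34.9 to 58.1 in controls and from 37.0 to 66.6 in knockouts. Of these 9 markers, 6 had log2 differences above 0 and 3 below, with a median of 0.26. None passed limma, and the groups overlapped for every marker. Dppa3, a marker above 0, was at 16.6, 1.09 and 1.68 TPM in controls and at 19.01, 8.55 and 4.55 TPM in knockouts. It was highest in control 1 and knockout 1. The part of germ cells in the levels of Cdh1 and Epcam was not tested.

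Keratins gave the clearest contrast among structural genes. Krt18 (ENSMUSG00000023043), a type I keratin, was at 305, 287 and 297 TPM in controls, against 249.8, 228 and 251 in the knockouts. Krt8 (ENSMUSG00000049382), its type II partner, was at 179, 176 and 182 TPM in controls, against 159.6, 139.8 and 153 in the knockouts. For both, every knockout lay below every control. The log2 differences were -0.29 (SE 0.062) for Krt18 and -0.25 (SE 0.066) for Krt8, with limma adjusted p of 0.119 and 0.193. Krt19 (ENSMUSG00000020911), another type I keratin, lay the other way, at 117, 89.4 and 89.2 TPM in controls, against 133, 116.6 and 140.0 in the knockouts. Control 1 (116.5 TPM) and knockout 2 (116.6 TPM) nearly touched, and the log2 difference was 0.40 (with SE 0.12 and adjusted p = 0.233 by limma). Krt7, a type II keratin of ducts, differed by 0.031, with a 95% interval from -0.13 to 0.20. The authors' deposited table marks Krt18 (log2 fold change -0.28, adjusted p = 0.0231) and Krt19 (0.40, adjusted p = 0.0348) but not Krt8 (-0.24, adjusted p = 0.0989).

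**Figure D2:**
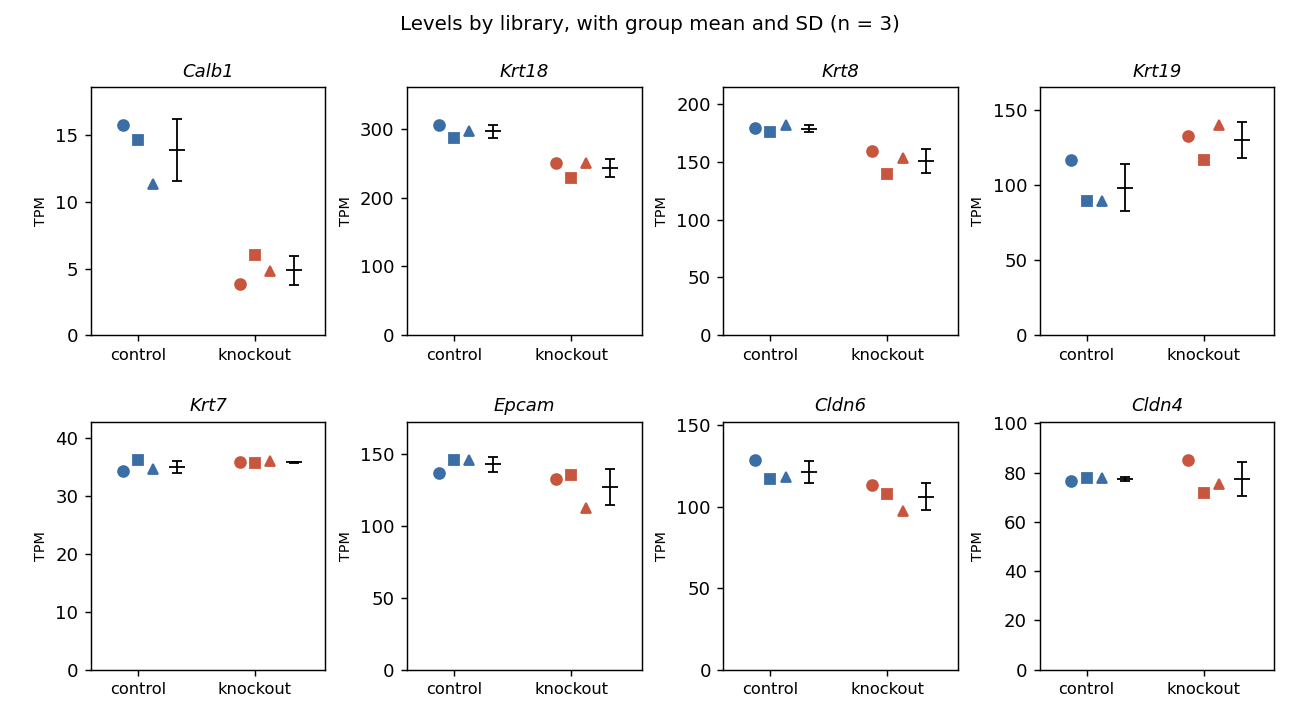
TPM by library for Calb1, the 4 keratins, Epcam, Cldn6 and Cldn4, with each group's mean and SD (n = 3) beside its points and axes from 0. Calb1, Krt18, Krt8, Epcam and Cldn6 show every knockout below every control, Krt19 the reverse, and Krt7 and Cldn4 overlap.

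Across all 35 genes, the authors' deposited table marks 3 at an adjusted p under 0.05: Krt19 higher, and Calb1 and Krt18 lower, where it marks 3.55% of 18858 genes with an adjusted p (1.38% higher and 2.17% lower). Limma-voom on the recovered reads called only Calb1 of the 35, against 1.41% of genes in that fit. The groups did not overlap for 10 of the 35 genes, against 16.6% of all tested genes. Lower without overlap were 7 (Calb1, Krt8, Krt18, Epcam, Cldn6, Prom1 and Grhl1; background 8.49%), and higher were 3 (Krt19, Spint1 and Cgn; background 8.14%).

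Krt8, Krt18 and Krt19 are also keratins of surface and gonadal epithelia. The coelomic and surface list holds 10 genes, Krt19 among them. Without Krt19, the other 9 summed to 423, 507 and 502 TPM in controls, against 481, 493 and 510 in the knockouts, and these sums overlapped. With Krt19, 5 of the 10 had differences above 0 and 5 below, with a median of 0.0047 on the log2 scale. In this list 1 gene was called higher (Lhx9, a factor of the early gonadal ridge) and 0 lower. Upk3b, a uroplakin gene of mesothelium, had a difference of 0.12 (SE 0.076). Muc16, a mucin of mesothelium, had one of -0.43 (SE 0.17) and is marked lower by the authors' deposited table (adjusted p = 0.0121). Msln, which encodes mesothelin, had one of -0.36 (SE 0.23), Upk1b one of -0.19 (SE 0.36) and Lrrn4 one of -0.17 (SE 0.20). Gonadal somatic genes summed to 131 to 190.3 TPM in controls, against 195.8 to 286 in the knockouts, and 3 of the 11 tested were called higher: Nr5a1 and Gata4, both needed for gonad formation, and the inhibin and activin subunit gene Inhbb. Of the 13 in the table, Hsd3b1 and Cyp17a1 were listed at 0 in control 3. The part of these cells in the keratin values was not tested.

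Promoters of the keratin pair and of most other epithelial genes examined shared 1 short motif. The motif is the E-box CAGGTG, which reads CACCTG on the other strand and is the site bound by the repressors of the Snail and Zeb families. The windows are the 250 bases before the gene start, from RefSeq on GRCm38.p6, which held an entry for 24 of the 35 genes. It occurred in 18 of those 24 (75.0%), and in 18.5% of 11328 tested genes with an entry and 17.2% of all 32851 windows. Genes without a match were Cgn, Cldn3, Grhl1, Mal, Marveld2 and Spint1. A second motif, AACNGGTT, close to the site of grainyhead-like factors, occurred in 3 of 24 (Cgn, Prom1 and Rab25), against 1.86% of tested genes and 1.79% of windows. The GC box GGGCGG was present in 70.8% of the genes here and 62.7% of tested genes, and 32.7% of windows. The TATA box TATAAA occurred in 1 of 24 (Marveld2), against 8.07% of tested genes and 12.4% of windows, and the TCF/LEF core CTTTGAT in 0 of 24, against 2.79% and 3.21%. Both strands were searched, and the letters of the E-box and of AACNGGTT do not allow their matches to overlap. A match is a run of letters, not a shown binding site.

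A few of these windows are shown 5′ to 3′, with the E-box and AACNGGTT matches in capitals: Krt8 (chr15:102004343-102004592, minus strand) and Krt18 (chr15:102027966-102028215, plus strand) as the keratin pair that lay lower without overlap, Epcam (chr17:87635729-87635978, plus strand) as a gene with 2 E-box matches, Cldn4 (chr5:134946935-134947184, minus strand) as the claudin with a log2 difference nearest 0, and Rab25 (chr3:88548280-88548529, minus strand) as a gene with both motifs.
Krt8: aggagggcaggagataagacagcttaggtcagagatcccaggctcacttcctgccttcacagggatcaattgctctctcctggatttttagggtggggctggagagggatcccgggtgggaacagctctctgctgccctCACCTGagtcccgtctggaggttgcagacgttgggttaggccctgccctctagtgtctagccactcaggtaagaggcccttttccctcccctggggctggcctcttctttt
Krt18: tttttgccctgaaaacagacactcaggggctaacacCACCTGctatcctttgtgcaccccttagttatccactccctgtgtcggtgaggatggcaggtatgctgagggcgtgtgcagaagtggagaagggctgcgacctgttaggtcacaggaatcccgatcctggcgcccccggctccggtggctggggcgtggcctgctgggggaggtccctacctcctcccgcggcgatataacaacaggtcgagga
Epcam: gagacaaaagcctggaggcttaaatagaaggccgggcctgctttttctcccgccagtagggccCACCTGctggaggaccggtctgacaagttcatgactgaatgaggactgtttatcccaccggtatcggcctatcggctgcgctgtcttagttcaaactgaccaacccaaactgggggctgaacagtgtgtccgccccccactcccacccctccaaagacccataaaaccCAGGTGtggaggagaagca
Cldn4: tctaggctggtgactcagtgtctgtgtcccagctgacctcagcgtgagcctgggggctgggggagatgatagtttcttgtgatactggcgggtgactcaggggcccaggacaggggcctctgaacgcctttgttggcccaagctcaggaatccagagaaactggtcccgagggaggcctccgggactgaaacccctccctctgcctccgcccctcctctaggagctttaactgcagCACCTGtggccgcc
Rab25: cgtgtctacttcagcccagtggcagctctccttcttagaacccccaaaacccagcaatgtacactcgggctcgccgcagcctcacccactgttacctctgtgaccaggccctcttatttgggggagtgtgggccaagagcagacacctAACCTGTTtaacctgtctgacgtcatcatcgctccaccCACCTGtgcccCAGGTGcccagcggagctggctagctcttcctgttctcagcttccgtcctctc
The match begins 111 bases before the start in Krt8, 214 in Krt18 and 14 in Cldn4. In Epcam the matches begin 187 and 19 bases before it. Rab25 has E-boxes at 64 and 53 bases and the match to AACNGGTT at 102 bases. The last of these is a match on the other strand. The E-box was present in Krt8 and Krt18, whose groups lay apart, and in Cldn4, whose log2 difference was -0.0020.

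**Figure D3:**
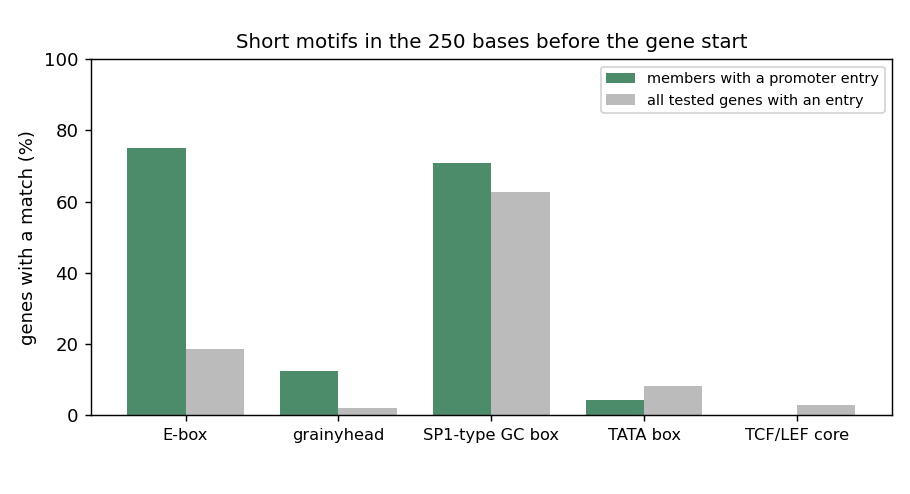
Share of genes (%) with at least 1 match of each motif in the 250 bases before the gene start, for the 24 epithelial genes with an entry (green) and for all 11328 tested genes with an entry (grey). The E-box bars differ most, at 75.0% and 18.5%.

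Factors of epithelial-mesenchymal transition, the Snail and Zeb repressors among them, were measured in the same libraries, which also hold mesenchyme. None of 6 (Snai1, Snai2, Zeb1, Zeb2, Twist1 and Twist2) passed limma over all genes. However, 5 had unadjusted p below 0.05, against 11.3% of all tested genes. The authors' deposited table marks 0 of the 6. Of the 6, 4 had differences below 0 and 2 above, with a median of -0.19 on the log2 scale. Snai1 was at 82.4, 76.0 and 76.0 TPM in controls, against 61.0, 72.0 and 62.8 in the knockouts, with no overlap. Zeb1 was at 60.6, 61.6 and 65.6 TPM in controls, against 46.6, 48.8 and 59.1 in the knockouts, also apart. Zeb2 had a difference of -0.11 (SE 0.11), with groups that overlapped. Twist2, a basic helix-loop-helix factor, had one of -0.45 (SE 0.13), with no overlap. The 2 genes above 0 were those of highest level. Snai2 was at 113, 124 and 122 TPM in controls, against 126, 136 and 151 in the knockouts, with no overlap. Twist1, the relative of Twist2, averaged 164 ± 12.4 TPM in controls, against 200.1 ± 31.9 in the knockouts, and its groups overlapped.

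None of the 4 claudins, which form the strands of the tight junction, passed the test. Of the 4, 1 had unadjusted p below 0.05, against 11.3% of all tested genes. Cldn6, the claudin of embryonic epithelia and the highest of the 4, was at 129, 117 and 118 TPM in controls, against 114, 107.7 and 97.6 in the knockouts. All knockouts lay below the controls, by -0.19 on the log2 scale (with SE 0.076 and adjusted p = 0.396 by limma). Cldn4, a claudin of collecting duct type epithelia, was at 76.6, 77.9 and 77.7 TPM in controls, against 85.2, 71.7 and 75.5 in the knockouts, and its 95% interval ran from -0.18 to 0.18. Knockout 3 was the lowest library for Cldn7 (36.0 TPM, against 42.9 to 47.4 TPM in the others). Cldn3 was at 32.6, 36.6 and 29.8 TPM in controls, against 37.5, 39.9 and 32.7 in the knockouts, and its groups overlapped as those of Cldn7 did.

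Of the other junction proteins, 6 of 8 had differences above 0 and 2 below. F11r, the junctional adhesion molecule JAM-A, averaged 119 ± 6.44 TPM in controls, against 129 ± 9.75 in the knockouts. Cgn, which encodes cingulin, a cytoplasmic plaque protein of tight junctions, was at 15.5, 16.7 and 16.4 TPM in controls, against 18.2, 17.1 and 20.5 in the knockouts, with no overlap and a log2 difference of 0.19 (with SE 0.11 and adjusted p = 0.581 by limma). Lsr, the angulin that brings tricellulin to the corners where 3 cells meet, differed by 0.27 (SE 0.12), and Marveld2, tricellulin itself, by -0.032 (SE 0.12). Ocln, the occludin gene, was at 10.9, 14.4 and 11.4 TPM in controls, against 9.50, 7.56 and 11.3 in the knockouts. Knockout 3 lay within the controls there, and the log2 difference of -0.35 (with SE 0.17 and adjusted p = 0.511 by limma) has an interval from -0.74 to 0.045. Crb3, of the apical polarity complex, and Tjp3, the scaffold ZO-3, had differences of 0.11 and 0.25, and Marveld3, another membrane protein of the tight junction, one of 0.012.

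Apical sorting and membrane genes also overlapped, except Prom1. Prom1, prominin of apical membrane protrusions, was at 26.9, 30.1 and 29.6 TPM in controls, against 26.5, 24.3 and 23.6 in the knockouts (-0.21 on the log2 scale, SE 0.090, adjusted p = 0.434 by limma). Mal, a raft protein of apical transport, ranged widely, from 9.40 to 13.3 TPM in controls, against 11.3 to 21.4 in the knockouts, with knockout 3 the highest. Rab25, a small GTPase of recycling endosomes, and Ap1m2, the epithelial adaptor subunit of basolateral sorting, had differences of -0.18 and -0.24. In the matriptase system, Spint1, an inhibitor, was at 18.6, 22.0 and 22.7 TPM in controls, against 26.5, 23.3 and 25.0 in the knockouts. Those groups were apart, by 0.23 on the log2 scale (with SE 0.11 and adjusted p = 0.468 by limma). The protease gene St14 averaged 9.64 ± 1.52 TPM in controls, against 7.71 ± 2.10 in the knockouts, and the second inhibitor gene Spint2 63.8 ± 3.09 and 62.2 ± 11.2 TPM.

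The regulators had low levels, from 1.88 TPM (Ehf) to 11.7 TPM (Esrp1) in a library. Grhl2, a grainyhead-like factor that maintains epithelial junction genes, was at 4.22, 4.65 and 3.96 TPM in controls, against 3.82, 3.69 and 4.25 in the knockouts. Its relative Grhl1 was at 8.18, 10.5 and 9.52 TPM in controls, against 8.07, 7.94 and 6.81 in the knockouts, lower without overlap by -0.27 (with SE 0.14 and adjusted p = 0.553 by limma). Esrp1 and Esrp2, which set epithelial splicing, differed by 0.0038 and 0.21. Ehf and Elf3, ETS factors of epithelia, differed by 0.39 and -0.063. Intervals were wide at these levels, from -0.13 to 0.91 for Ehf.

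Calb1 (ENSMUSG00000028222) was at 15.8, 14.6 and 11.3 TPM in controls, against 3.81, 5.998 and 4.83 in the knockouts. Every knockout lay well under the lowest control. The log2 difference was -1.35 (with SE 0.19 and adjusted p = 0.0281 by limma), with an interval from -1.77 to -0.92, and the reads behind it were 743, 585 and 440 in controls and 170, 244 and 196 in knockouts. In the authors' deposited table its log2 fold change is -1.51 and its adjusted p 5.69e-12. The difference ranged from -1.48 to -1.21 when each library was left out in turn, but the adjusted p was above 0.05 on leaving out any library other than knockout 3: it was 0.0985, 0.155 and 0.0735 without controls 1, 2 and 3 and 0.0802, 0.0660 and 0.0398 without knockouts 1, 2 and 3 (limma). Wfdc2, a secreted protein gene of the duct and its derivatives that was grouped with Calb1, was at 73.8, 63.8 and 49.6 TPM in controls, against 55.4, 49.1 and 38.2 in the knockouts. Its groups overlapped, with a log2 difference of -0.38 (with SE 0.17 and adjusted p = 0.452 by limma).

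**Figure D4:**
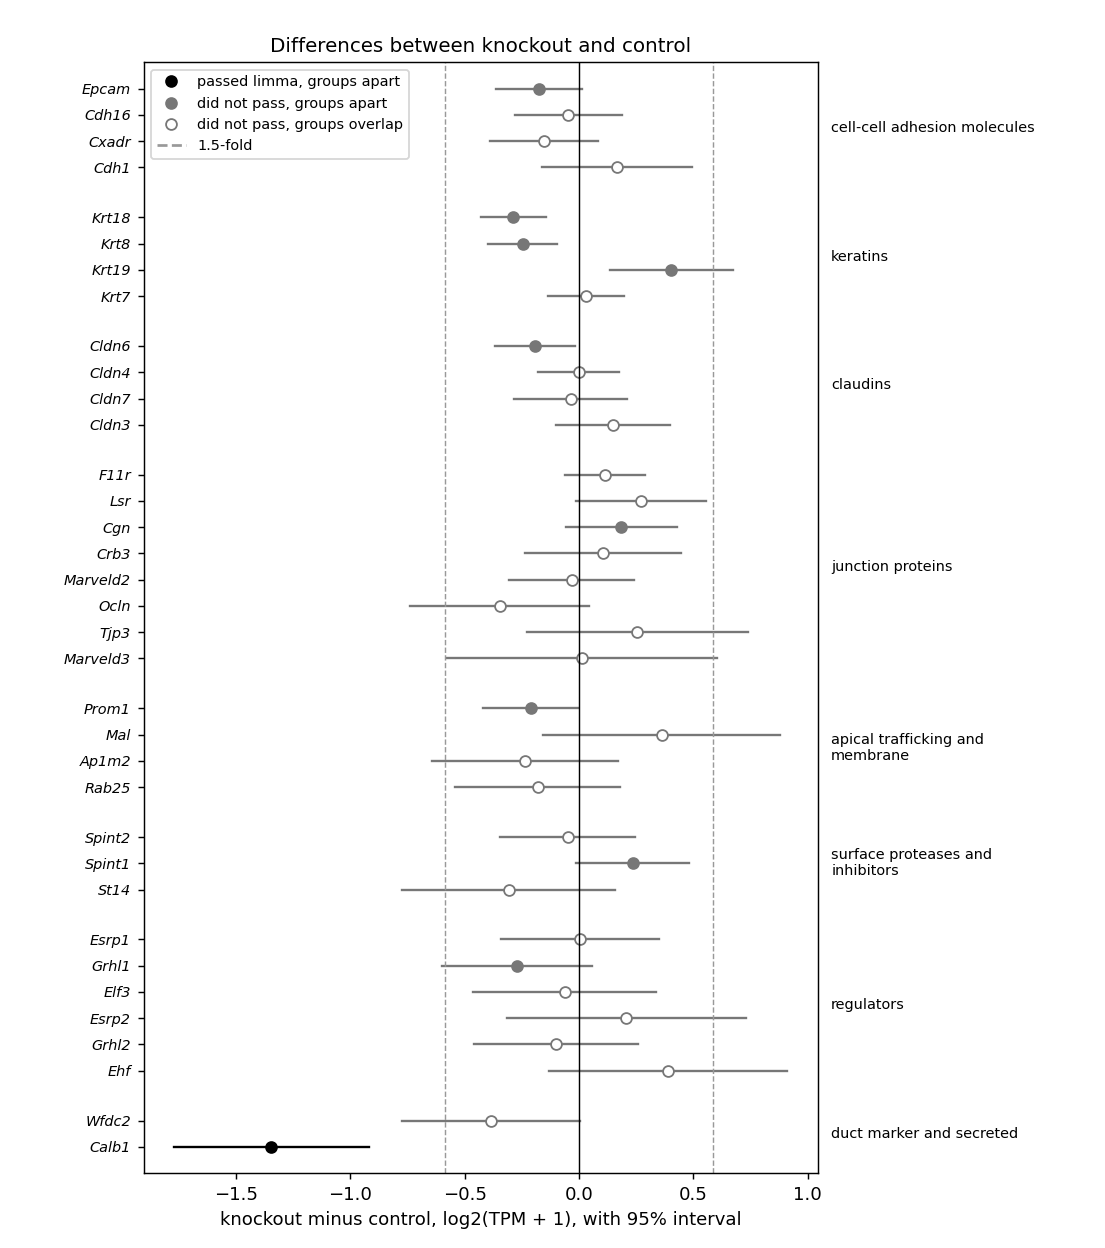
Knockout minus control on the log2(TPM + 1) scale for the 35 genes, with 95% intervals from limma; filled points mark groups without overlap and the black point the gene that passed the test, and dashed lines mark 1.5-fold. Calb1 at -1.35 is the only interval wholly beyond 1.5-fold.

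The duct and tubule identity genes give the setting for Calb1. Of 12 tested, 0 were called higher and 1 lower, the factor Lhx1, needed for duct and tubules, which fell to 9.03 ± 1.46 TPM (SD, n = 3) from a control level of 23.98 ± 2.99 (adjusted p = 0.0123 by limma). The targeted gene Wnt9b was at 24.9, 26.4 and 34.0 TPM in controls, against 23.4, 19.2 and 19.02 in the knockouts, with no overlap (adjusted p = 0.266 by limma). The authors' deposited table marks Wnt9b lower (log2 fold change -0.45, adjusted p = 0.0263). The deleted part of the gene is not named in the labels, and a value over the whole gene can include transcript outside it, so it checks the labels little. Gata3 and Ret of the duct were detected throughout, with lowest values of 16.4 and 4.54 TPM. The sum of the list ran from 354.6 to 408 TPM in controls and from 294 to 363 TPM in knockouts. Endothelial markers summed to 493 to 533 TPM in controls and 420 to 460.5 TPM in knockouts, and erythroid markers to 13252 to 17595 and 16546 to 18484 TPM. Their part in the values of the 35 genes was not tested.

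**Figure D5:**
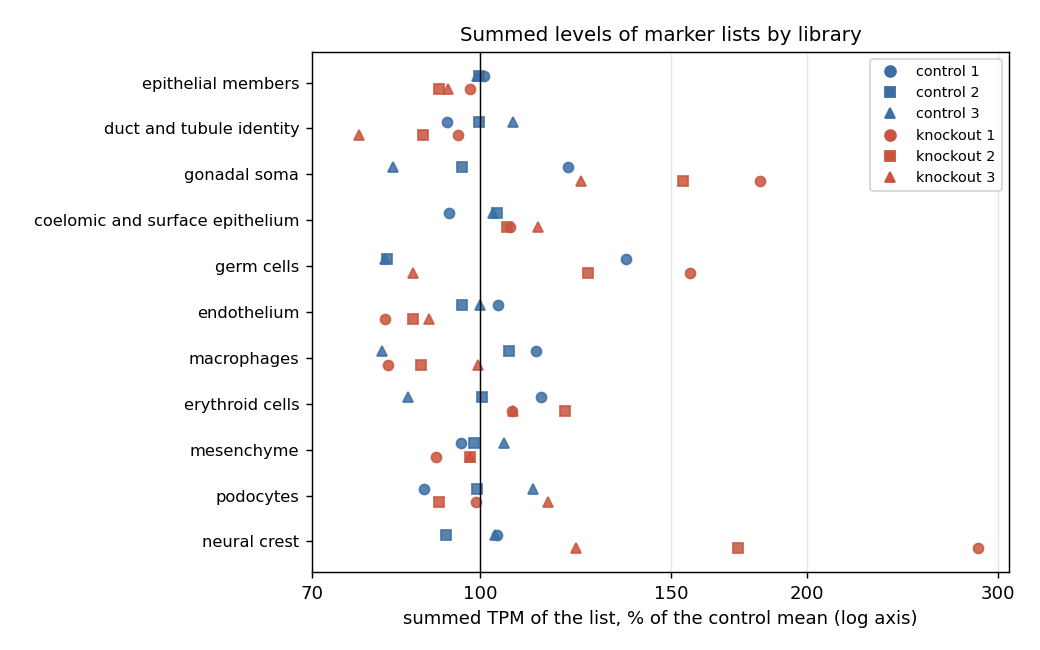
Summed TPM of the 35 epithelial genes and of each marker list in each library, as % of the mean of the 3 controls (log axis). The epithelial sum, in which Krt18 and Krt8 weigh most, was 97.9%, 91.7% and 93.5% in the knockouts, under every control. The endothelial sum also lay under every control. Gonadal soma and neural crest sums lay above every control, as did the coelomic sum, which includes Krt19.

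Outside the 35, the lists of other junction, membrane and protease, regulator and keratin genes held no gene past the test. Their counts at an unadjusted p below 0.05 (limma) are to be read against 11.3% of all tested genes. None of 21 tested tight junction and polarity genes passed limma over all genes (3 with unadjusted p below 0.05, and 0 marked by the authors' deposited table), with a median log2 difference of -0.019. The highest, Tjp1, the scaffold ZO-1, was at 100.4, 104 and 107 TPM in controls, against 89.3, 88.3 and 90.4 in the knockouts, and the kinase gene Prkci differed by -0.026. None of 18 tested adherens junction and desmosome genes passed (1 with unadjusted p below 0.05, and 0 marked by the authors' deposited table), with a median of -0.060. Ctnnb1, the beta-catenin gene, averaged 693 ± 60.5 TPM in controls, against 662 ± 14.0 in the knockouts, and Ctnna1 253 ± 1.78 and 254 ± 7.20 TPM. None of 13 tested membrane and protease genes passed (4 with unadjusted p below 0.05). The highest of them, Cd24a and Atp1b1, differed by 0.085 and 0.29 on the log2 scale.

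None of 8 other epithelial regulators tested passed limma. Klf5, a zinc finger factor of that list, differed by -0.37 on the log2 scale. Of 7 other keratins tested, none passed limma (3 with unadjusted p below 0.05, against 11.3% of all tested genes). The highest were Krt10, at 22.7 ± 1.09 TPM in controls, against 27.6 ± 1.56 in the knockouts, and Krt14, at 14.6 TPM in both. Krt17, a keratin of basal and appendage epithelia, was at 11.002, 6.63 and 9.80 TPM in controls, against 2.17, 2.00 and 4.31 in the knockouts (-1.43 on the log2 scale, SE 0.27, adjusted p = 0.0802 by limma). All knockouts lay below all controls, and its adjusted p in the authors' deposited table is 0.000347.

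Which library was lowest differed from gene to gene. Knockout 2 was the lowest of the 6 for 12 of the 35 genes, with Krt8, Krt18 and Ocln among them, where it was the lowest for 22.3% of all tested genes. Knockout 3 was the lowest for 10, with Epcam, Cldn6 and Cldn7 among them, against 15.7% of all tested genes. Knockout 1 was the lowest for 1 gene, Calb1, against 17.3% of all tested genes, and the highest for 9, with Cdh1, Cldn4 and Spint1 among them, against 16%. The median log2 deviation of the 35 genes from the control mean was 0.030 in knockout 1, -0.17 in knockout 2 and -0.0076 in knockout 3. Without knockout 3, the median difference of the 35 genes was 0.0026 and Calb1 was still the only one called, while 242 of all genes were called in place of 78.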

How the data were processed

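Per the labels' protocols, PicoPure RNA went through poly(A) enrichment and paired reads of 150 bases. Per the submitters' processing notes the authors used GRCm39 and DESeq2. Aligner, counting tool, strand setting and annotation: not given in the sources used here. Per library, the authors deposited TPM, per the file headers, with their log2 fold change, p-value and adjusted p-value (empty for 1175 genes). The authors' log2 values follow knockout over control mean TPM (Pearson r = 0.9998 over 12426 genes).

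Groups follow the sample titles. The test was limma 3.58.1 (R 4.3.3) with a mean-variance trend on log2(TPM + 1), which understates changes of low genes, for genes with 1 TPM or more in 3 or more libraries, Benjamini-Hochberg adjusted over 17577 genes, threshold 0.05. Intervals are 95% and not adjusted. P-values measure the spread between these 6 samples, which may be in part technical.

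Whole reads were recovered from ratios of TPM for 20022 of 20033 genes, within 0.02 reads; in a check of 1000 genes with up to 4000 reads tried, 94.6% came out whole, and 0.1% after random changes. The totals, 27225433 to 31580900 per library, are lower bounds. Steps were tested on simulated data. All 35 genes are named; of other lists, genes past the test or the 2 of highest level, and of marker lists, those that moved. Some genes these rules reach are not reported here. Krt17, the coelomic and mesenchymal transition genes beyond these rules, the coelomic sum without Krt19, the ratios and the windows printed were chosen after values were seen. Members and lists were chosen with earlier results of these data known. Promoters are RefSeq's, on GRCm38.p6.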

Additional observations from a re-analysis of the deposited data

How the results depend on the processing

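Calb1 kept its direction under every alternative run and stayed the only member called under a pseudocount of 0.1, no filter or a mean of at least 5 TPM, 3 other scalings and limma-voom on recovered reads; its adjusted p ranged from 0.00299 to 0.155 over all alternatives. Without the mean-variance trend the members called lower were 0 and all genes called 28, in place of 1 and 78. Limma-voom called 268 genes. With each library left out in turn, all genes called ranged from 13 to 242, members called lower from 0 to 1, members called higher stayed at 0, and members without overlap ranged from 12 to 18 (10 with all libraries; fewer libraries overlap less by construction). The cause of the other shifts was not tested.

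With a replicate block, all genes called were 17 and members called lower 0 (Calb1 adjusted p = 0.0925, limma). Correlations of deviations between libraries of the same mouse number were -0.064, 0.050 and -0.051, and not every library correlated best with its own number. With so few libraries per group, these correlations cannot decide whether the mouse numbers mark pairs, and litter and batch are not given.

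Cldn4, at -0.0020, changed sign to 0.0068 under median ratios, 0.0018 under the upper quartile, 0.0092 without erythroid and mitochondrial genes and 0.018 under limma-voom. With libraries left out, 9 members of small difference changed sign in 18 of 210 fits of a member: Cdh16 (-0.14 to 0.025), Cldn4 (-0.072 to 0.051), Cldn7 (-0.11 to 0.083), Elf3 (-0.15 to 0.089), Esrp1 (-0.095 to 0.10), Esrp2 (-0.035 to 0.41), Marveld2 (-0.084 to 0.052), Marveld3 (-0.17 to 0.18) and Spint2 (-0.13 to 0.11). Under the mean of at least 5 TPM, 4 members were not tested.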

Other observations

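Ratios of 2 genes within a library do not depend on its scaling and show where keratins kept or left their proportion. They were chosen after the values were seen and carry no test. The ratio of Krt8 to Krt18 in TPM was 0.586, 0.613 and 0.612 in controls and 0.639, 0.613 and 0.611 in knockouts, so the type II and type I partners were lower in nearly equal proportion. The ratio of Krt19 to Krt18 was 0.382, 0.312 and 0.300 in controls and 0.532, 0.511 and 0.559 in knockouts. Those groups are wide apart, at means of 0.331 ± 0.044 and 0.534 ± 0.024 (SD, n = 3). The ratio of Krt7 to Krt18 also lay apart, from 0.112 to 0.127 in controls and 0.143 to 0.157 in knockouts.

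The ratio of Calb1 to Epcam was 0.115, 0.10 and 0.0775 in controls and 0.0288, 0.0443 and 0.0429 in knockouts, and that of Calb1 to Cdh16 was 0.159 ± 0.040 and 0.058 ± 0.016, so Calb1 was lower also relative to these adhesion genes. In the matriptase system, the ratio of the inhibitor Spint1 to the protease St14 was 2.29, 2.27 and 2.04 in controls and 2.68, 3.07 and 4.41 in knockouts, higher in 3 of 3 knockouts. Knockout 3, with the highest ratio, also had the lowest St14.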
